A study of Mus musculus with 7 samples.

Results

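Interferon-stimulated genes are the antiviral programme that a cell switches on when interferon is sensed. A set of 39 of them was followed through pancreatic spheroid cultures of mice. Members were taken by symbol from a fixed list of 39 genes, sorted by role. All 39 were found among the 54446 genes of the count table, and all 39 passed the filter on low counts. Polyadenylated RNA was sequenced from 4 post-caerulein and 3 untreated libraries, which are numbered 01 to 04 and 01 to 03 below. Both groups were spheroids, 3-dimensional cultures labelled as pancreatic epithelial cells, grown from C57BL/6J wild-type mice without any engineered allele. The post-caerulein mice had received caerulein, an analogue of cholecystokinin that brings on pancreatitis, and the untreated mice had not. Dose, interval, animal age and the animal behind each library do not appear in the labels used here, so p-values measure the spread between libraries, which may be partly technical. The comparison asks whether epithelium cultured after an inflammation of the pancreas keeps a different expression level from epithelium that was never inflamed.

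Type I and type III interferons bind receptors whose kinases, Jak1 and Tyk2, phosphorylate transcription factors, Stat2 among them. Stat2 enters a complex with Irf9 that binds interferon-stimulated response elements in promoters. The genes so induced encode sensors of viral RNA, enzymes that degrade it, proteins that block its translation or the exit of virus particles, and the transcription factors and kinases of the pathway itself. Epithelial cells can keep a low tonic level of these genes without any infection.

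The summed level of the 39 genes did not separate the groups. It was 658.8, 992.0, 737.3 and 341.5 CPM (counts scaled to library size, with TMM factors) in post-caerulein 01 to 04, against 2171, 2088 and 400.2 CPM in untreated 01 to 03. Untreated 01 and 02 stood above the other 5 libraries, while untreated 03 lay between post-caerulein 04 and post-caerulein 01. Averages were 682.4 ± 268.1 CPM (SD, n = 4) in post-caerulein and 1553 ± 999.3 CPM (SD, n = 3) in untreated libraries. In bulk RNA, fewer cells expressing a gene and less RNA per cell cannot be told apart.

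**Figure D1:**
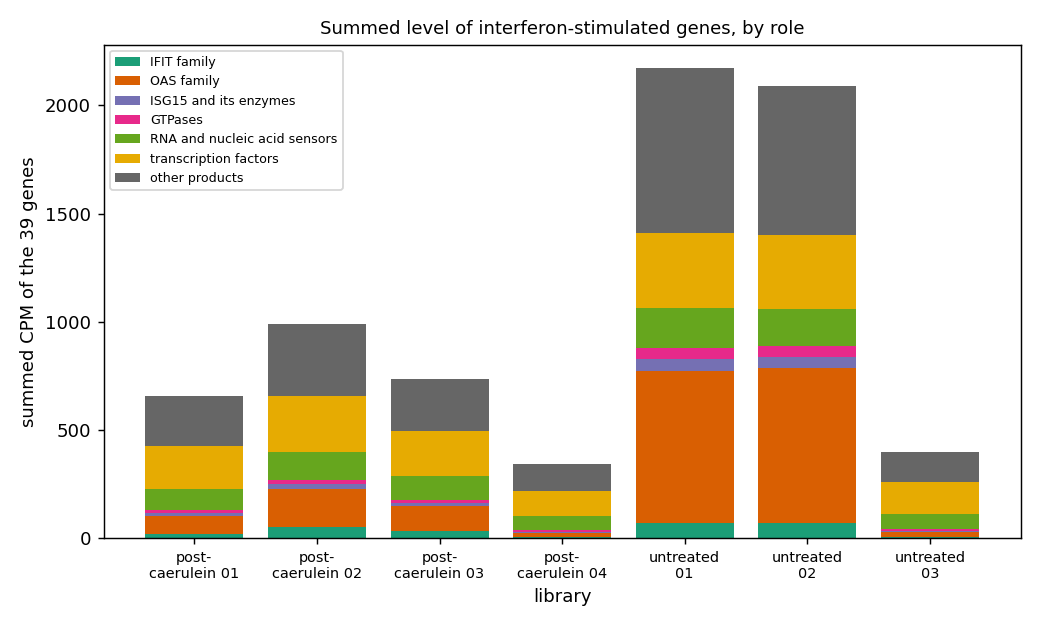
Summed CPM of the 39 interferon-stimulated genes (vertical axis) in each library (horizontal axis), stacked by role. Untreated 01 and 02 exceed 2000 CPM, and post-caerulein 04 and untreated 03 are the shortest bars at 341.5 and 400.2 CPM.

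The make-up of that sum shifted with its height. The 6 genes of the oligoadenylate synthetase (OAS) family, whose product activates the RNA-cutting enzyme RNase L, gave 13.0%, 17.8%, 15.9% and 6.25% of it in post-caerulein 01 to 04, against 32.4%, 34.2% and 6.40% in untreated 01 to 03. The 4 transcription factors gave 30.2%, 26.0%, 28.1% and 33.4% in post-caerulein libraries, against 16.0%, 16.2% and 37.0% in untreated ones. Where the summed level was high, the OAS share was large and the transcription factor share small. Per kilobase of exon, mean levels over the 7 libraries ran from 0.0580 CPM per kb for Ifi203 to 73.9 CPM per kb for Bst2, with a median of 6.47.

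The libraries fall into a pair of blocks that bear on every value below. The authors' deposited table of differential expression was obtained again, to within 3.161e-08 in log2 fold change and with all 1023 of its calls, by a fit in which post-caerulein 04 and untreated 03 form one block (the smaller block) and the other 5 libraries form the other (the larger block). No label says what the block stands for. Post-caerulein 02 and 03, and untreated 01 and 02, were close pairs with biological coefficients of variation of 5.74% and 8.44%, against 21.9% or more for every other pair, but differed by more than sampling noise (chi-square of 10.2 and 12.4 per gene) and were kept as separate libraries. Total counts ranged from 34783738 to 46744497 per library. The markers Krt19, Krt8 and Krt18 of ductal epithelium were at 2304 CPM or more in every library, and Ptprc of leukocytes at no more than 0.105 CPM. Another of the 8 leukocyte markers, Cd68, was at 11.7 to 35.05 CPM in post-caerulein and at 20.6 to 97.9 CPM in untreated libraries, highest in untreated 03. Of 3 markers of plasmacytoid dendritic cells, a potent source of interferon, Siglech was at 0 in all 7 libraries and Ccr9 at no more than 0.190 CPM. The third, Tcf4, was at 20.7, 15.7, 17.1 and 11.3 CPM in post-caerulein 01 to 04, against 21.1, 20.8 and 10.5 CPM in untreated 01 to 03, and its part in the results was not tested.

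Many of these genes carried the response element in their promoter window. The core of the interferon-stimulated response element, GAAANNGAAA on either strand (TTTCNNTTTC on the other), was searched in the RefSeq windows of build GRCm38.p6, from 250 bases before to 50 bases after each start. Windows were available for 30 of the 39 genes, and 18 of the 30 (60%) held at least 1 match, against 3.99% of all 27025 genes with a window. Overlapping matches were counted separately, and more than 1 match stood in 8 of 37 windows of these genes, against 0.225% of all windows. The core of the gamma-activated sequence, TTCNNNGAA, stood in 6 of 30 (20%), against 9.55% of all genes. A match describes letters in a window and is not evidence of binding.

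The stretches below are examples: Isg15, with the most matches, Rsad2 and Oas3, both called in the fit with the block, and genes of the IFIT and OAS clusters. They run 5′ to 3′ on the gene's own strand, with the matched letters in capitals. The Isg15 stretch lies at chr4:156200835-156200936 on the minus strand and holds 3 overlapping matches, those of Rsad2 (chr12:26456523-26456612, minus) and Oas3 (chr5:120777685-120777774, minus) hold 1 each, and those of Ifit1 (chr19:34640745-34640853, plus), Ifit3 (chr19:34583333-34583456, plus), Oas1a (chr5:120907526-120907585, minus) and Oas1g (chr5:120887614-120887671, minus) hold 2 each. Gbp3 and Bst2 also hold 2 overlapping matches and are not shown.
Isg15: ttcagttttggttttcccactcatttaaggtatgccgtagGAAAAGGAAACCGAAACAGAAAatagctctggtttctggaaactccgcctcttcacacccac
Rsad2: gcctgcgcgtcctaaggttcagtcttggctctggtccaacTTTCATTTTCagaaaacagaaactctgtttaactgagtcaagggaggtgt
Oas3: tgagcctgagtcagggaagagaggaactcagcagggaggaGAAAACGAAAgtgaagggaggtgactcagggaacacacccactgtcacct
Ifit1: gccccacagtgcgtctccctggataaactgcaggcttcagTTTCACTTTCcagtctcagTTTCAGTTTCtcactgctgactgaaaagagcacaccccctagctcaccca
Ifit3: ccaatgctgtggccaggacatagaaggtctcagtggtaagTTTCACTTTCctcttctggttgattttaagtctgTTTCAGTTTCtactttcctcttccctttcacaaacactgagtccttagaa
Oas1a: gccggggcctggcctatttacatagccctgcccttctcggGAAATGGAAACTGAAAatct
Oas1g: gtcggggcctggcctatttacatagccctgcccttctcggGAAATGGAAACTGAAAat

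The Ifit3b stretch (chr19:34607729-34607852, plus) was identical to that of Ifit3 over 124 of 124 bases, and the Oas1a and Oas1g stretches are near copies. These neighbouring genes are recent duplicates, so reads may be shared between Ifit3 and Ifit3b and between Oas1a and Oas1g, and their single values are uncertain. The 4 IFIT genes lie within chr19:34550710-34650009, Oas1a, Oas1g, Oas2 and Oas3 within chr5:120730333-120907521, and the 3 guanylate-binding protein genes within chr3:142530342-142638008. Rsad2 ends 12751 bases before Cmpk2 on chromosome 12.

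Across all 7 libraries, with the group as the only term, 38 of the 39 genes had a negative log2 change, meaning lower in post-caerulein, with a median of -1.10. Of all 16438 genes tested, 52.9% were negative, with a median of -0.02. None of the 39 was called at an adjusted p under 0.05 (edgeR quasi-likelihood test, Benjamini-Hochberg adjustment over all genes), where 0.00% of all genes were called, and 8 of the 39 had an unadjusted p under 0.05, all lower, against 4.72% of all genes. Post-caerulein and untreated libraries overlapped for each of the 39, and 4.65% of all genes had every post-caerulein library below every untreated one. Without untreated 03, which lay near post-caerulein 04, 12 of the 39 and 572 of all genes were called lower, and DESeq2 over all 7 libraries called 3 of the 39, and 232 of all genes lower.

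**Figure D2:**
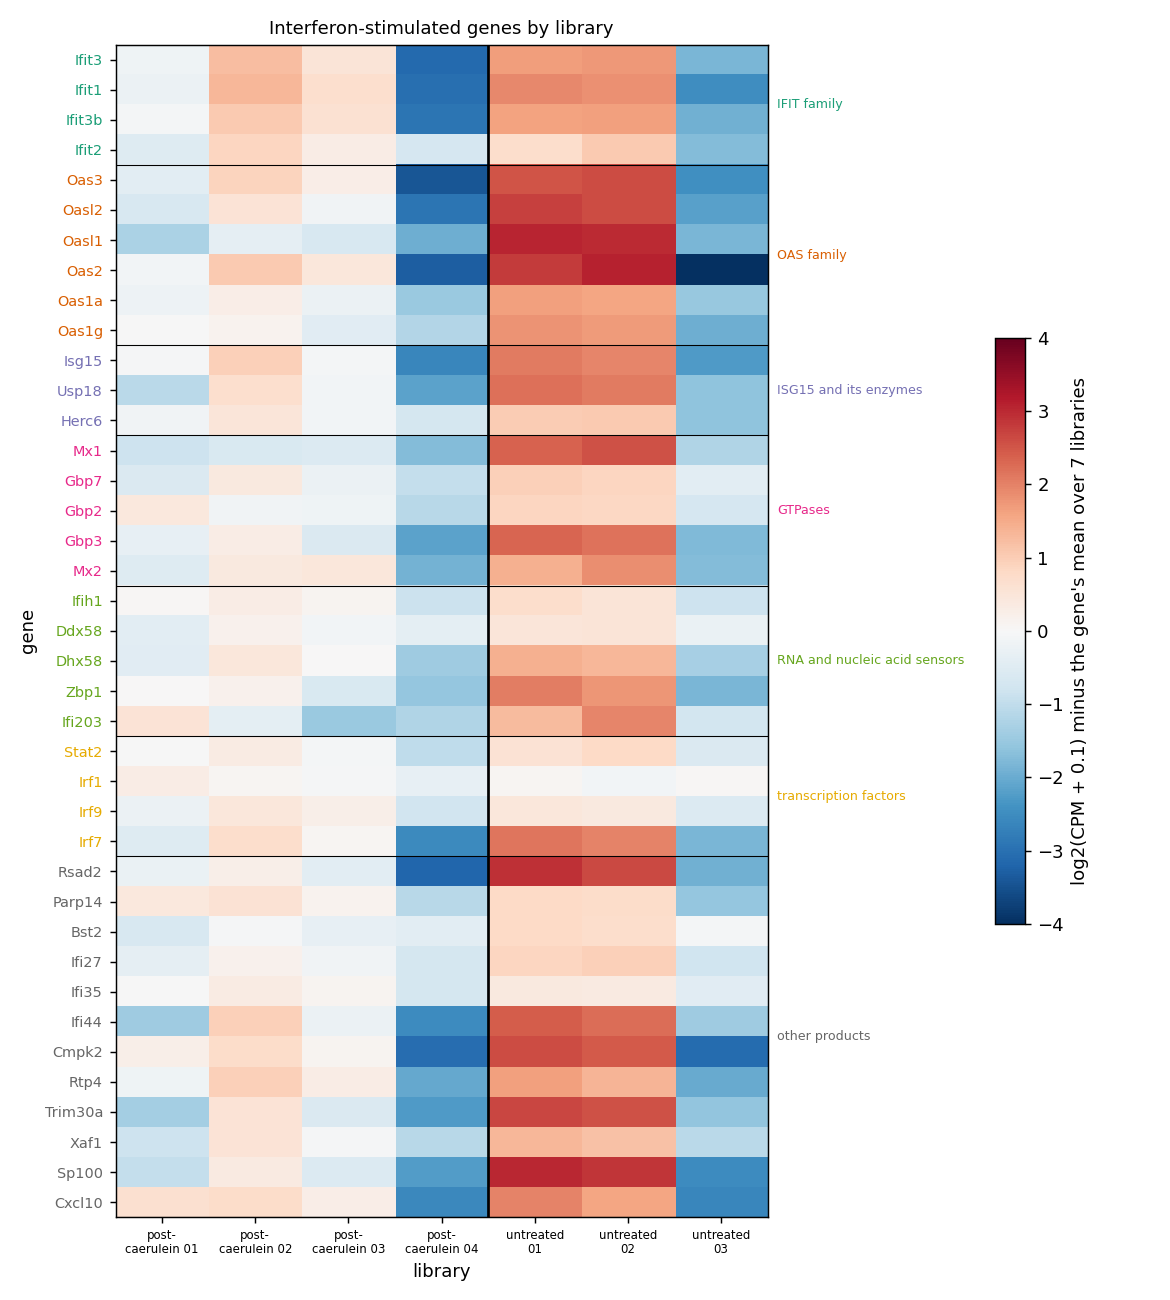
Level of each of the 39 genes (rows, grouped by role) in each library (columns, post-caerulein left of the black line), as log2(CPM + 0.1) minus the gene's mean over the 7 libraries. Post-caerulein 04 and untreated 03 are blue for nearly all genes, untreated 01 and 02 are red, and Irf1 is near white throughout.

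With the block of the deposited table as a second term, all 39 log2 changes were negative with a median of -1.15. Of the 39, 2 were called lower, Rsad2 and Oas3. In that fit 0.876% of all genes were called lower. Below, a gene that fell or rose is one called at an adjusted p under 0.05 in the fit named. Rsad2 encodes viperin, a radical enzyme that makes a chain-terminating nucleotide and blocks replication of many viruses. It was at 27.6, 38.7, 24.6 and 3.55 CPM in post-caerulein 01 to 04, against 250.0, 205.5 and 8.57 CPM in untreated 01 to 03. Both untreated libraries of the larger block lay above the 3 post-caerulein libraries beside them, and untreated 03 lay above post-caerulein 04, while the groups as wholes overlapped. The change was -2.50 ± 0.32 on the log2 scale (SE, adjusted p = 0.02328).

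Oas3, a large synthetase known from human cells as the main activator of RNase L, fell by 1.91 on the log2 scale in the same fit (SE 0.34, adjusted p = 0.04827). Its levels were 25.2, 62.7, 40.6 and 3.09 CPM in post-caerulein 01 to 04, against 193.8, 205.4 and 6.10 CPM in untreated 01 to 03. The order of libraries was like that of Rsad2. Both calls were lost without any one of post-caerulein 01, 02 or 03 (adjusted p 0.06024 to 0.1667 for Oas3 and 0.06435 to 0.09166 for Rsad2) or of untreated 01 or 02 (0.2708 and 0.2805 for Oas3, 0.1822 and 0.1979 for Rsad2), with close pairs summed (0.5744 for Oas3 and 0.4224 for Rsad2) and with no filter (0.1884 and 0.07699). Oas3 also missed the threshold with at least 50 counts in 3 libraries (0.06361). Over the 39, 24 were called lower without untreated 03 and 23 without post-caerulein 04. Of all genes, 1061 and 939 were called lower there, against 144 with all libraries. Either omission leaves the smaller block with 1 library, so both settings amount to the comparison within the larger block given below. They are not separate checks of it.

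In the authors' deposited table, 36 of the 39 genes are listed, 23 of them lower in post-caerulein at a false discovery rate under 0.05 and 0 higher. Of the 12983 genes in the authors' deposited table, 3.39% are called lower. Rsad2 has a log2 fold change of -2.46 and a false discovery rate of 3.614e-18 in the authors' deposited table. Those values were given back by a likelihood-ratio test on the same counts with the same block. They differ from the quasi-likelihood results above in the test and the genes kept, and are not further evidence. The authors' deposited table gives -2.85 for Oasl1 and -2.50 for Mx1.

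Within the larger block, which sets post-caerulein 01 to 03 against untreated 01 and 02, 25 of the 39 genes fell and 0 rose. Of all 16276 genes tested there, 6.46% were called lower, and the median log2 change was -1.29 for the 39 genes and 0.01 for all. All 3 post-caerulein libraries lay below both untreated ones for 36 of the 39 genes, a pattern that 24.9% of all genes showed. Exceptions were Ifit2, Irf1 and Irf9. Untreated 01 and 02 carry this comparison as a close pair: 5 of the 39 were called lower without untreated 01, 9 without untreated 02, 15 without post-caerulein 03, and 12 with the close pairs summed to 1 library each. Over all genes, 302, 424, 1247 and 433 were called in either direction in those 4 settings, against 2247 with all 5 libraries.

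All 6 OAS family genes fell within the larger block, with a median log2 change of -2.29 and the widest fall for Oasl1. Oasl1, an OAS-like protein without synthetase activity that in mouse represses translation of Irf7, was at 6.82, 13.0, 10.6 and 4.23 CPM in post-caerulein 01 to 04, against 136.8, 131.1 and 4.56 CPM in untreated 01 to 03. It fell by 3.70 ± 0.24 in log2 (SE, adjusted p = 0.0004728). Untreated 03 was thus within the range of the post-caerulein libraries.

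Oasl2, an OAS-like protein, was at 18.7, 42.5, 26.8 and 3.76 CPM in post-caerulein libraries, against 195.8, 180.9 and 6.43 CPM in untreated ones, with a log2 change of -2.66 ± 0.31 within the larger block (SE, adjusted p = 0.003265). Oas2, a synthetase, had 13.5, 30.2, 20.0 and 1.39 CPM in post-caerulein 01 to 04, against 101.1, 124.7 and 0.823 CPM in untreated 01 to 03. Untreated 03 held the lowest Oas2 level of all 7 libraries, although untreated 01 and 02 held the highest. The log2 changes within the larger block were -2.39 for Oas2, -2.19 for Oas3, -1.84 for Oas1g and -1.63 for Oas1a (adjusted p 0.001851 to 0.008329). Oas1a, a synthetase, had 16.0, 22.1, 15.6 and 6.56 CPM in post-caerulein 01 to 04, against 57.6, 55.5 and 6.39 CPM in untreated 01 to 03. Its duplicate Oas1g had 5.30, 5.94, 3.88 and 2.31 CPM in post-caerulein libraries, against 18.8, 17.7 and 1.31 CPM in untreated ones. In both, untreated 03 was the lowest of all 7.

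The 4 IFIT genes encode tetratricopeptide proteins, of which Ifit1 binds viral RNA that lacks the host's cap methylation. None of the 4 passed the test over all libraries, with the block or within the larger block, where 3 of the 4 had an unadjusted p under 0.05. The authors' deposited table lists Ifit1, Ifit3 and Ifit3b as lower, at false discovery rates of 0.0281, 0.004591 and 0.01765. Ifit1 was at 5.64, 17.1, 10.7 and 0.736 CPM in post-caerulein 01 to 04, against 25.9, 23.8 and 1.11 CPM in untreated 01 to 03. Ifit3 had 6.68, 17.9, 10.7 and 0.778 CPM in post-caerulein libraries, against 24.1, 25.2 and 2.07 CPM in untreated ones. In both genes post-caerulein 02 was the highest of the 4 post-caerulein libraries, and post-caerulein 04 and untreated 03 were the lowest of all.

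Ifit3b, the duplicate of Ifit3, had 3.65, 8.13, 5.98 and 0.420 CPM in post-caerulein 01 to 04, against 12.1, 12.3 and 0.957 CPM in untreated 01 to 03. Ifit2, which associates with other IFIT proteins, had 3.23, 8.41, 5.73 and 2.88 CPM in post-caerulein libraries, against 7.63, 9.68 and 1.31 CPM in untreated ones. Ifit2 differed from its neighbours in that post-caerulein 02 exceeded untreated 01 and post-caerulein 04 exceeded untreated 03. Log2 changes within the larger block were -1.13 ± 0.39 for Ifit1, -1.04 ± 0.36 for Ifit3, -1.02 ± 0.31 for Ifit3b and -0.56 ± 0.37 for Ifit2 (SE, adjusted p 0.07715 to 0.3992).

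Isg15 is a ubiquitin-like protein that is attached to other proteins, Usp18 removes it and also restrains the interferon receptor, and Herc6 is its main ligase in mouse. All 3 fell within the larger block. Isg15 had 6.06, 12.2, 6.03 and 0.946 CPM in post-caerulein 01 to 04, against 27.1, 24.8 and 1.25 CPM in untreated 01 to 03, and fell by 1.66 ± 0.31 in log2 (SE, adjusted p = 0.01736). Usp18 had 1.85, 6.49, 3.73 and 0.841 CPM in post-caerulein libraries, against 18.9, 17.6 and 1.25 CPM in untreated ones, and fell by 2.15 ± 0.43 in log2 (SE, adjusted p = 0.02125). Herc6 had 3.81, 5.99, 3.94 and 2.59 CPM in post-caerulein libraries, against 8.59, 8.77 and 1.34 CPM in untreated ones, and fell by 0.90 ± 0.23 in log2 (SE, adjusted p = 0.04995). For Isg15 and Usp18 the libraries of the smaller block lay below the rest, and for Herc6 untreated 03 was the lowest.

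Among the 5 GTPases, which coat viral particles or the vacuoles of intracellular pathogens, Mx1, Gbp3 and Mx2 fell within the larger block. Mx1 is an antiviral GTPase, and the allele of most laboratory mouse strains encodes no functional protein. It had 2.05, 2.36, 2.51 and 1.05 CPM in post-caerulein 01 to 04, against 19.3, 22.3 and 1.54 CPM in untreated 01 to 03, and fell by 3.14 ± 0.16 in log2 (SE, adjusted p = 0.000283). Gbp3, a guanylate-binding protein, had 1.63, 2.58, 1.37 and 0.399 CPM in post-caerulein libraries, against 10.8, 9.79 and 0.534 CPM in untreated ones, and fell by 2.45 ± 0.28 in log2 (SE, adjusted p = 0.002941). Both had untreated 03 among the post-caerulein values.

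Gbp2 and Gbp7, also guanylate-binding proteins, had smaller differences and did not pass. Gbp2 had 5.97, 4.00, 3.92 and 2.02 CPM in post-caerulein 01 to 04, against 8.05, 7.95 and 2.74 CPM in untreated 01 to 03 (log2 change -0.77 ± 0.22, SE, adjusted p = 0.06851 within the larger block). Gbp7 had 3.09, 6.13, 3.98 and 2.38 CPM in post-caerulein libraries, against 9.18, 8.52 and 3.47 CPM in untreated ones (log2 change -0.98 ± 0.29, SE, adjusted p = 0.0707). Mx2 was low, between 0.210 and 1.45 CPM in post-caerulein and between 0.245 and 4.05 CPM in untreated libraries, and fell by 1.53 in log2 within the larger block (adjusted p = 0.03448).

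Of the 5 sensors of viral RNA and other nucleic acids, 3 fell within the larger block, by unequal amounts. Ifih1 (MDA5), a sensor of long double-stranded RNA, had 56.0, 65.9, 57.8 and 29.5 CPM in post-caerulein 01 to 04, against 87.9, 76.5 and 30.2 CPM in untreated 01 to 03, and fell by 0.43 ± 0.11 in log2 within the larger block (SE, adjusted p = 0.04378). Ddx58 (RIG-I), which senses the triphosphate end of viral RNA, had 31.4, 47.5, 39.1 and 31.8 CPM in post-caerulein libraries, against 58.9, 59.7 and 35.04 CPM in untreated ones, and did not pass (log2 change -0.57 ± 0.17, SE, adjusted p = 0.07226). Dhx58 (LGP2), which modulates both, had 7.94, 15.2, 11.1 and 4.06 CPM in post-caerulein libraries, against 29.4, 27.6 and 4.34 CPM in untreated ones. In all 3 genes both libraries of the smaller block lay near each other and below untreated 01 and 02.

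Dhx58 fell by 1.29 ± 0.25 in log2 within the larger block (SE, adjusted p = 0.01811). Zbp1, a sensor of left-handed nucleic acid that can start necroptosis, had 1.68, 1.92, 1.07 and 0.505 CPM in post-caerulein 01 to 04, against 7.18, 5.97 and 0.400 CPM in untreated 01 to 03, and fell by 2.06 ± 0.28 in log2 (SE, adjusted p = 0.005317). Ifi203, of the interferon-inducible PYHIN family, averaged below 1 CPM over the 7 libraries. It ranged from 0 to 0.309 CPM in post-caerulein and from 0.0667 to 0.970 CPM in untreated libraries, where 3 counts, the limit that a count of 0 allows, amount to 0.0642 to 0.0862 CPM, and such limits cover counting error only. It did not pass (log2 change -2.52 ± 0.86 within the larger block, SE, adjusted p = 0.1109).

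The 4 transcription factors divided. Irf7, which drives interferon-α genes and is itself induced, had 19.0, 44.9, 29.0 and 4.60 CPM in post-caerulein 01 to 04, against 120.9, 108.5 and 7.70 CPM in untreated 01 to 03, and fell by 1.86 ± 0.32 in log2 within the larger block (SE, adjusted p = 0.01199). Stat2 had 59.8, 76.2, 57.8 and 30.1 CPM in post-caerulein libraries, against 91.9, 105.6 and 40.7 CPM in untreated ones, and fell by 0.59 ± 0.14 in log2 (SE, adjusted p = 0.04023). Both had post-caerulein 04 and untreated 03 lowest and untreated 01 and 02 highest.

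Irf9, the DNA-binding partner of Stat2, had 41.8, 68.4, 58.4 and 28.8 CPM in post-caerulein 01 to 04, against 68.3, 65.2 and 34.1 CPM in untreated 01 to 03 (log2 change -0.22 ± 0.19 within the larger block, SE, adjusted p = 0.5305). Irf1, which responds mainly to interferon-γ and inflammatory signals, had 78.3, 68.0, 62.1 and 50.6 CPM in post-caerulein libraries, against 67.4, 59.6 and 65.7 CPM in untreated ones (log2 change 0.15 ± 0.12, SE, adjusted p = 0.4654). Irf1 was thus nearly level: its group means were 64.7 ± 11.5 CPM (SD, n = 4) in post-caerulein and 64.3 ± 4.12 CPM (SD, n = 3) in untreated libraries. It was the one member with a positive change within the larger block.

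**Figure D3:**
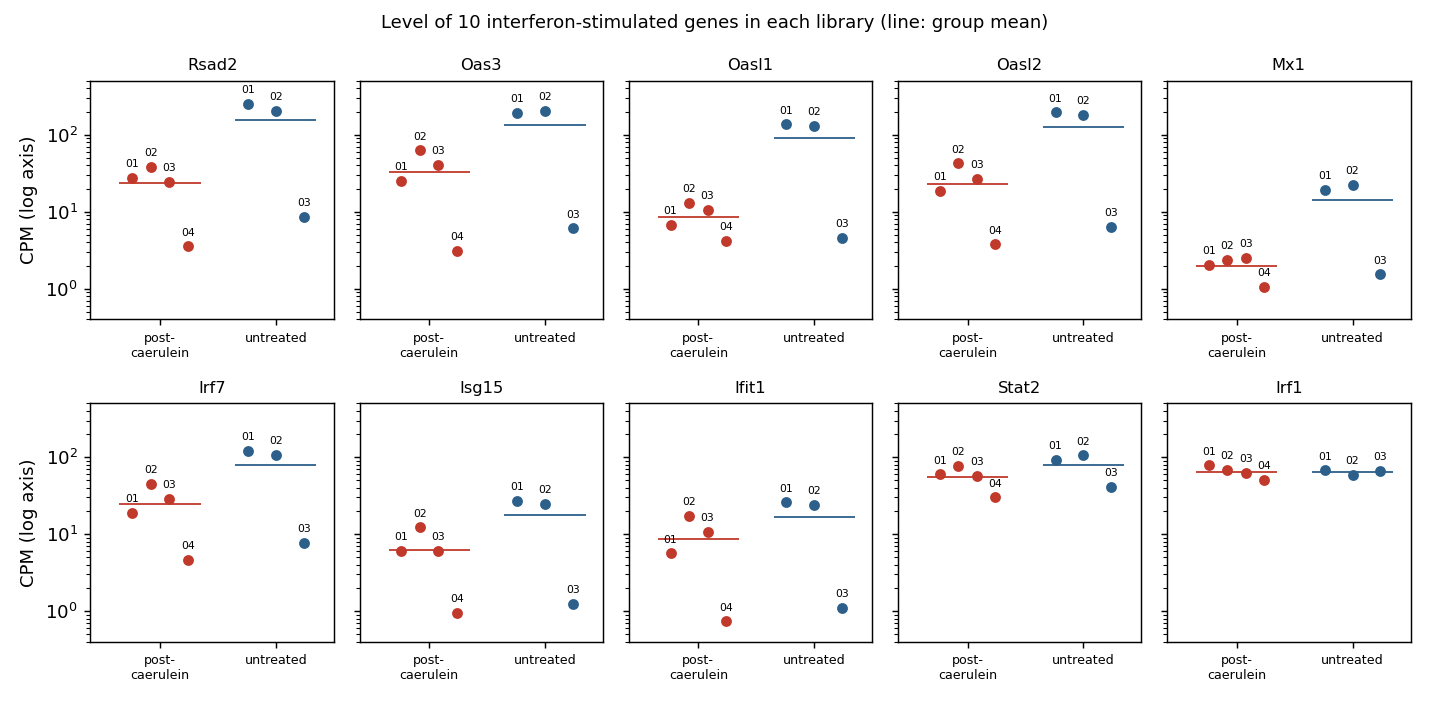
Level in CPM (vertical log axis) of 10 of the genes in each library, post-caerulein left of untreated in each panel, with library numbers beside the points and a line at the group mean. Untreated 01 and 02 lie above all post-caerulein libraries for Rsad2, the OAS genes, Mx1, Irf7, Isg15, Ifit1 and Stat2, with untreated 03 far below them, whereas the 7 Irf1 points span 50.6 to 78.3 CPM.

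Among the 12 other products, 8 fell within the larger block, Rsad2 by 2.89 ± 0.20 (SE, adjusted p = 0.0005576). Bst2 (tetherin), which holds budding virus at the cell surface, had 35.1, 53.6, 43.7 and 40.7 CPM in post-caerulein 01 to 04, against 94.99, 89.2 and 52.2 CPM in untreated 01 to 03, and fell by 1.04 ± 0.17 in log2 (SE, adjusted p = 0.01039). Bst2 departed from the general pattern in that untreated 03 lay above 3 of the 4 post-caerulein libraries. Its unadjusted p over all 7 libraries was 0.005692 (adjusted p = 0.273), the smallest among the 39 genes.

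Ifi27, a mitochondrial and nuclear membrane protein, had 35.4, 50.4, 40.5 and 27.6 CPM in post-caerulein 01 to 04, against 82.4, 86.8 and 26.0 CPM in untreated 01 to 03, and fell by 0.98 ± 0.15 in log2 within the larger block (SE, adjusted p = 0.00831). Parp14, an ADP-ribosyltransferase, had 78.2, 87.6, 65.1 and 27.4 CPM in post-caerulein libraries, against 101.7, 98.4 and 20.0 CPM in untreated ones, and did not pass (log2 change -0.35 ± 0.13, SE, adjusted p = 0.1298). Both were lowest in untreated 03, with post-caerulein 04 next.

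The 8 remaining products all had untreated 01 and 02 as their highest libraries. Cmpk2, a mitochondrial nucleotide kinase and the neighbour of Rsad2, ranged from 0.757 to 11.8 CPM in post-caerulein and from 0.734 to 42.7 CPM in untreated libraries, and fell by 2.13 in log2 within the larger block (adjusted p = 0.001407). Sp100, a nuclear body protein, ranged from 0.526 to 3.72 CPM and from 0.423 to 23.7 CPM in those groups and fell by 3.24 in log2 (adjusted p = 0.00263). Trim30a, a mouse tripartite motif protein, ranged from 0.736 to 5.80 CPM in post-caerulein and from 1.22 to 25.2 CPM in untreated libraries and fell by 2.86 in log2 (adjusted p = 0.01189).

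Ifi44 ranged from 1.60 to 19.0 CPM in post-caerulein and from 3.58 to 51.9 CPM in untreated libraries and fell by 2.22 in log2 within the larger block (adjusted p = 0.04904). Cxcl10, the chemokine that draws T cells through Cxcr3, was scarce at 0.210 to 2.97 CPM in post-caerulein and 0.2002 to 7.25 CPM in untreated libraries, and fell by 1.26 in log2 (adjusted p = 0.0159). Xaf1, a pro-apoptotic antagonist of XIAP, Rtp4, a chaperone of membrane receptors, and Ifi35 did not pass within the larger block, with log2 changes of -1.26, -1.05 and -0.22 (adjusted p 0.0604, 0.06598 and 0.2898). Xaf1 ranged from 2.94 to 9.52 CPM in post-caerulein and from 3.07 to 16.7 CPM in untreated libraries, Rtp4 from 2.04 to 16.7 CPM and from 2.07 to 26.9 CPM, and Ifi35 from 17.0 to 34.9 CPM and from 20.4 to 37.0 CPM.

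A wide contrast among the 39 genes lay inside the untreated group. The mean level in untreated 01 and 02 was 0.966 times (Irf1) to 137.1 times (Oas2) that in untreated 03, with a median of 12.7 times over the 39 genes. For 27 of the 39, untreated 03 held less than 0.2 of the lower of untreated 01 and 02, which was so for 2.68% of all genes. Between the close pair itself, untreated 02 ranged from 0.747 to 1.70 times untreated 01.

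Post-caerulein libraries had an order of their own. Post-caerulein 02 was the highest of the 4 for 34 of the 39 genes, against 16.5% of all genes, and post-caerulein 04 the lowest for 36, against 34.0%. The median level of the 39 genes was 6.67, 15.2, 10.6 and 2.37 CPM in post-caerulein 01 to 04, against 27.1, 25.2 and 2.74 CPM in untreated 01 to 03. Post-caerulein 01, 02 and 03 thus stood between the smaller block and untreated 01 and 02.

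Within the smaller block the difference was small and mixed. Post-caerulein 04 lay below untreated 03 for 28 of the 39 genes, where 49.7% of all genes did, with a median log2 difference of -0.27 for the 39 and 0.00 for all genes. The ratio's 95% counting interval lay below 1 for 17 genes, above 1 for 5 and held 1 for 17. Such intervals were not computed over all genes, so these 3 counts have no background share and do not show whether they are unusual. Post-caerulein 04 held less than 0.5 of the untreated 03 level for 5 of the 39 (4.49% of all genes) and over 2 times for Ifit2 alone (5.92% of all genes). With 1 library on each side this has no replicate check, and the intervals cover counting error only.

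The change itself was set against the block by an interaction term. It was called for 599 of 16438 genes (3.64%) and for 4 of the 39, Oasl1, Mx1, Oas1g and Oas1a, with 3 residual degrees of freedom. The term, change in the smaller block minus change in the larger block, was 3.61 for Oasl1 and 2.62 for Mx1 (adjusted p = 0.01694 for each), 2.68 for Oas1g (adjusted p = 0.02638) and 1.70 for Oas1a (adjusted p = 0.04226). The smaller block has 1 library in each group, so the spread behind this test comes from the larger block alone. No call on the 39 was left without untreated 01, without untreated 02 or with close pairs summed.

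**Figure D4:**
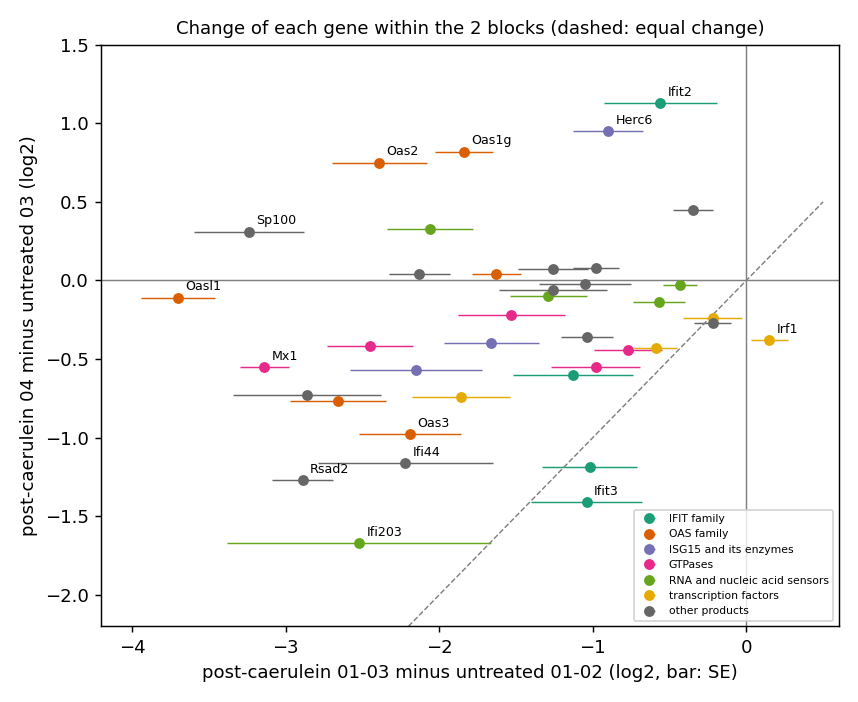
Log2 change of each gene in the larger block (horizontal axis, post-caerulein 01 to 03 minus untreated 01 and 02, bar: SE of the fit) against the difference within the smaller block (vertical axis, post-caerulein 04 minus untreated 03, no replicate), coloured by role. Most points lie above the dashed line of equal change: Oasl1 is at -3.70 and -0.11, Rsad2 at -2.89 and -1.27, and Ifit3 at -1.04 and -1.41.

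Genes with and without a promoter match both changed. Within the larger block the 18 genes with a match had a median log2 change of -1.19 and 11 of them fell, against a median of -1.56 and 7 of 12 among genes whose window held none, a difference that was not tested. Oasl1, Oasl2, Irf7 and Sp100 were among those without a match in the window, and Ddx58 and Ifih1 had theirs just after the start.

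Upstream of these genes, the listed ligands were at the limit of detection except for Ifne, and interferon genes outside the list were not examined. Of 10 interferon genes listed, 3 had no count in any library, and the 9 other than Ifne reached at most 3 counts in any library. Ifne, an interferon made by epithelia, had 0.0280, 0, 0 and 0 CPM in post-caerulein 01 to 04, against 3.24, 2.17 and 0.0445 CPM in untreated 01 to 03. It was high in the same 2 libraries as the 39 genes and at or under the floor of 3 counts in the other 5. Ifne did not pass the filter over all libraries and passed the one within the larger block only through the untreated libraries, so no test of it is given.

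Of the 6 receptor genes, 2 rose within the larger block, where 1196 of all 16276 genes were called higher. Ifnar1 had 77.9, 79.8, 74.7 and 76.2 CPM in post-caerulein 01 to 04, against 68.5, 66.01 and 84.8 CPM in untreated 01 to 03, and Ifnar2, its partner for type I interferon, 26.1 to 30.5 CPM against 27.7 to 32.6 CPM. Ifnlr1, the type III receptor, ranged from 34.8 to 43.6 CPM in post-caerulein and from 50.3 to 58.9 CPM in untreated libraries, without overlap, and its log2 change within the larger block was -0.33 ± 0.09 (SE, adjusted p = 0.0561). Ifngr1, of the interferon-γ receptor, and Il10rb, which pairs with Ifnlr1, rose within the larger block by 0.68 ± 0.10 and 0.55 ± 0.10 in log2 (SE, adjusted p 0.006778 and 0.01552), and Ifngr2 did not pass (log2 change 0.07 ± 0.15, SE). Over all 7 libraries neither Ifngr1 nor Il10rb passed (adjusted p 0.6081 and 0.8693), and post-caerulein 04 held 0.793 and 0.787 times the untreated 03 level. The interaction term for Ifngr1 was -0.99, with 1 library in each group of the smaller block and thus no replicate check there.

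The 3 kinases did not pass in any of the fits. Jak1 had 225.5 to 248.6 CPM in post-caerulein and 191.9 to 239.8 CPM in untreated libraries, Tyk2 68.3 to 75.5 CPM and 69.1 to 75.7 CPM, and Jak2 63.0 to 80.2 CPM and 69.5 to 76.1 CPM. Post-caerulein and untreated libraries overlapped for each of the 3.

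A list of 16 genes, headed sensors, adaptors and kinases, also holds antiviral proteins such as Zc3hav1. It is therefore not confined to steps before interferon. Of the 16, 14 were tested within the larger block, where 6.46% of all genes were called lower. Of the 14, 4 fell and 0 rose. The 2 most abundant were among them: Trim25, the ligase that modifies RIG-I, had 193.0 to 240.9 CPM in post-caerulein and 222.1 to 329.1 CPM in untreated libraries (log2 change -0.50, adjusted p = 0.01264), and Zc3hav1, an RNA-binding antiviral protein, 145.9 to 166.8 CPM and 152.6 to 250.3 CPM (log2 change -0.63, adjusted p = 0.005844). The other two were Tmem173 (STING) at -1.62 and Cgas, which makes its ligand, at -1.12 (adjusted p 0.007747 and 0.01434), named after their values were seen. Of the 8 genes of the regulator list 0 were called in any of the fits over all libraries or within the larger block; Irf2 and Isg20, an exonuclease also placed in that list, were the most abundant, at 0.15 and 0.11 on the log2 scale.

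Of 40 further interferon-induced genes outside the 39, 36 were tested within the larger block, 14 fell and 0 rose, with a median of -0.45. These counts include Gbp5, which passed the filter there only through untreated 01 and 02. It had 51 and 33 counts in those libraries, against 6, 3 and 2 in post-caerulein 01 to 03, so its call carries no weight. There 6.46% of all genes were called lower. In the fit with the block, 2 of 35 were called, both lower, where 0.876% of all genes were called lower. They were Ccl5, a chemokine, and Tap1, a peptide transporter for antigen presentation. No gene was called in that fit without untreated 01, without untreated 02 or with close pairs summed, so both calls were lost there. Counts of Ccl5 were low, at 3, 6, 12 and 1 in post-caerulein 01 to 04 and 6 in untreated 03. Ccl5 had 0.0841, 0.166, 0.253 and 0.0210 CPM in post-caerulein 01 to 04, against 2.72, 2.13 and 0.133 CPM in untreated 01 to 03 (log2 change -3.68 ± 0.40, SE, adjusted p = 0.02049). Tap1 had 71.7, 68.6, 59.9 and 64.6 CPM in post-caerulein libraries, against 99.1, 90.1 and 100.9 CPM in untreated ones (log2 change -0.54 ± 0.09, SE, adjusted p = 0.04424). Tap1 separated the groups with untreated 03 the highest of all, unlike each of the 39 genes.

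The 2 most abundant of that list, Lgals3bp, a secreted ligand of galectins, and Lgals9, a galectin, were at 239.3 to 418.1 CPM and 40.3 to 153.2 CPM in post-caerulein, against 227.6 to 512.8 CPM and 33.1 to 229.7 CPM in untreated libraries. Within the larger block Lgals9 fell by 0.66 in log2 (adjusted p = 0.01183) and Lgals3bp did not pass (log2 change -0.59, adjusted p = 0.06934). Ifitm3, which blocks entry of enveloped viruses and was named after its values were seen, had 5.61, 13.9, 8.24 and 1.60 CPM in post-caerulein 01 to 04, against 161.8, 143.8 and 2.36 CPM in untreated 01 to 03. Its library order was that of Oasl2, and it fell by 4.02 ± 0.34 in log2 within the larger block (SE, adjusted p = 0.001108).

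**Figure D5:**
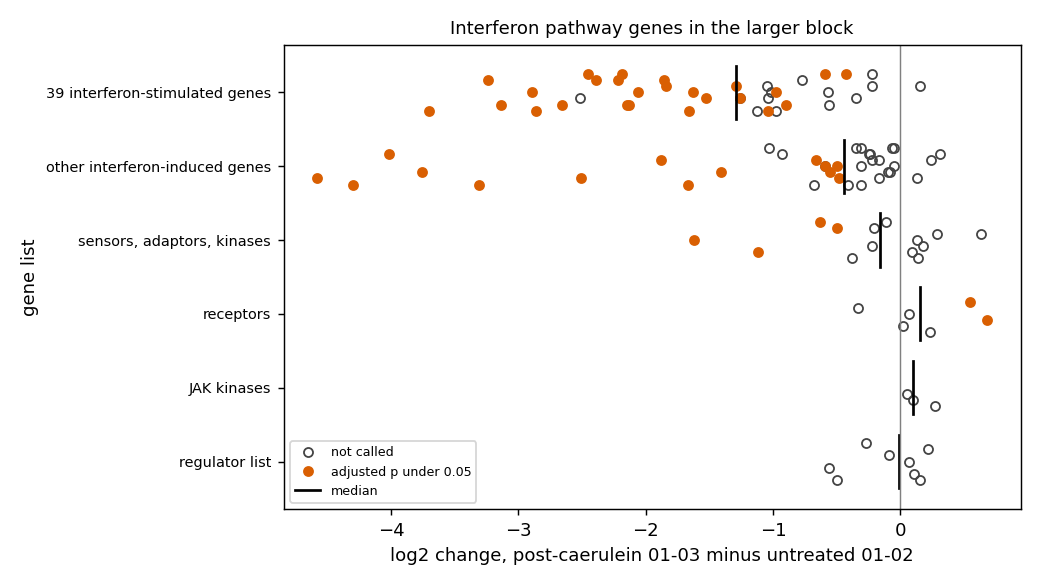
Log2 change within the larger block (horizontal axis, post-caerulein 01 to 03 minus untreated 01 and 02) of tested genes, by list (vertical axis), with filled points at an adjusted p under 0.05 and a bar at the median. Ifne is not drawn. Gbp5 is drawn among the further induced genes, although it passed the filter only through the untreated libraries. The 39 genes have a median of -1.29 and the 36 further induced genes one of -0.45, whereas the receptors have one of 0.15.

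Other measures also differed between libraries, though not all in the order of the 39 genes. Muc1, a mucin of ductal cells, had 611.3, 253.6, 324.5 and 95.2 CPM in post-caerulein 01 to 04, against 820.3, 753.2 and 80.0 CPM in untreated 01 to 03. Sox9, a transcription factor of ductal cells, was lowest where Muc1 was highest, at 51.7, 45.8, 37.1 and 39.4 CPM in post-caerulein libraries, against 10.9, 12.95 and 61.7 CPM in untreated ones. The 6 fibroblast markers summed to 2.64 to 6.94 CPM in post-caerulein and to 0.127 to 20.8 CPM in untreated libraries, highest in untreated 03. The 8 leukocyte markers summed to 12.9 to 36.8 CPM in post-caerulein and to 21.4 to 98.9 CPM in untreated libraries, nearly all of it Cd68, again highest in untreated 03. Mitochondrial genes took 2.32% to 2.75% of counts in post-caerulein and 1.83% to 2.68% in untreated libraries, lowest in untreated 01 and 02. Their part in the levels of the interferon-stimulated genes was not tested.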

How the data were processed

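RNA sequencing of 4 post-caerulein and 3 untreated spheroid libraries was used. Raw read counts per gene were deposited by the authors; the submitters' processing notes name featureCounts 0.6.1, edgeR 3.2.2, GRCm38 and mm10. Aligner: not given in the sources used here, nor is the strand setting. A second file deposited by the authors holds log2 fold changes, likelihood-ratio scores, p-values and false discovery rates, per the file headers.

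Counts were filtered (filterByExpr, minimum count 10, minimum total 15; 16438 genes kept), TMM-normalised and tested two-sided with edgeR 4.0.16 (quasi-likelihood, robust), with Benjamini-Hochberg adjustment over all genes. CPM uses TMM-scaled totals. Symbols were matched through unversioned Ensembl identifiers. The members, lists, block and tests were chosen with earlier results of these data known. Values in every library are given for the 4 most abundant members of each role and for members called with the group, block or interaction term; others are given by their range. One gene of the pathway list is not reported here. Replicate numbers were not taken to pair libraries, since no label says that they do. Alternatives were other size factors, other filters, DESeq2 1.42.0, voom (limma 3.58.1), each library left out, close pairs summed and a replicate block. The fits with the group and with the block were also run on simulated libraries. Those were independent, with the same spread for every gene and without close pairs, so they do not show how the fits behave on these libraries. R 4.3.3 and matplotlib 3.10.9 were used.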

Additional observations from a re-analysis of the deposited data

Results flagged for a closer look

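For 4 of the 39 genes the interaction term (edgeR quasi-likelihood, change in the smaller block minus change in the larger block) passed the threshold. Over all genes it passed for 599 of 16438 (3.64%). There was 1 library in each group of the smaller block, and the spread was taken from the larger block alone. The term was 3.61 for Oasl1, 2.68 for Oas1g, 1.70 for Oas1a and 2.62 for Mx1, with adjusted p-values of 0.01694, 0.02638, 0.04226 and 0.01694. In each of the 4 the post-caerulein libraries lay below the untreated ones in the larger block, while in the smaller block the log2 difference of post-caerulein 04 minus untreated 03 was -0.11 for Oasl1, 0.82 for Oas1g, 0.04 for Oas1a and -0.55 for Mx1. Without untreated 01 the adjusted p was between 0.147 and 0.2195, and without untreated 02 between 0.13 and 0.1977. Oas1a also missed the threshold with voom (0.06256), with at least 50 counts in 3 libraries (0.05447) and without post-caerulein 03 (0.06464), and Oasl1 without a filter (0.07403).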

How the results depend on the processing

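The median change of the 39 genes stayed negative under every alternative run (group only -1.64 to -0.74 and block fit -1.3 to -0.98 with each library left out), whereas counts of called genes moved widely. With the group as the only term, 0 genes were called, against 23 without a filter, 509 by DESeq2, 2247 in the larger block and 0 to 1149 with each library left out (1149 without untreated 03, 57 without post-caerulein 04). Called members numbered 0, against 3 by DESeq2, 25 in the larger block and 0 to 12 with a library left out. With the block, 251 genes and 2 members were called, against 602 and 4 without a filter, 138 and 1 with the stricter filter, 1389 and 26 by DESeq2, 0 and 0 with close pairs summed, and 0 to 2267 and 0 to 24 with a library left out; voom called 358 genes and 14 members. The larger block gave 2247 genes and 25 members, against 433 and 12 with close pairs summed and 302 to 5386 and 5 to 32 with a library left out. The interaction gave 599 genes and 4 members, against 1265 and 8 without a filter, 1568 and 12 by DESeq2, 1 and 0 with close pairs summed, and 1 to 4909 and 0 to 14 with a library left out. Without untreated 03 or post-caerulein 04, the block fit amounts to the larger-block comparison, and it called 2267 and 2086 genes and 24 and 23 members. The cause of the other shifts was not tested.

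Small changes reversed. With the group only, Irf1 turned to -0.01 and Parp14 to 0.01 with voom, and Parp14 to 0.00 with close pairs summed. With each library left out, Irf1 ran from -0.08 to 0.12, Parp14 from -0.61 to 0.12, Ifit2 from -0.75 to 0.18 and Irf9 from -0.41 to 0.03. With the block, Irf1 turned to 0.00 with the stricter filter and ran from -0.13 to 0.15 with each library left out, and Ifit2 from -0.56 to 0.16. No label says that replicate numbers pair the libraries. Correlations of deviations between libraries of the same number were 0.36, 0.13 and -0.20. Other pairings were not computed, so these values cannot decide the question. With a replicate block 0 genes and 0 members were called, the median was -0.61 with 32 of 39 negative, and Ifit2 turned to 0.17, Ifih1 to 0.02, Irf9 to 0.05, Parp14 to 0.36, Ifi35 to 0.03 and Cxcl10 to 0.03.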

Other observations

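A few interferon-induced genes outside the 39 showed the same split of libraries, and were chosen after their values were seen. Apol9a and Apol9b, apolipoprotein L genes, fell by 4.30 and 4.58 on the log2 scale within the larger block (adjusted p 0.0007536 and 0.0002907). Apol9a had 0.421, 0.999, 0.548 and 0.105 CPM in post-caerulein 01 to 04, against 13.2, 13.1 and 0.0445 CPM in untreated 01 to 03. Ifitm2, which blocks virus entry, had 32.7, 36.3, 34.6 and 16.1 CPM in post-caerulein 01 to 04, against 140.9, 118.3 and 12.4 CPM in untreated 01 to 03. Its interaction term was 2.28, with 1 library in each group of the smaller block and thus no replicate check there. Apol9a and Apol9b are near copies, and their single values are uncertain.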
